A study of Mus musculus with 2 samples.

Results

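The genes of lipid uptake, storage and efflux described here are Cd36, Lpl, Fabp4, Fabp5, Plin2, Scd1, Scd2, Abca1, Abcg1 and Apoe, which were chosen by symbol, and all 10 were found among the 24346 symbols listed for each of 2 bulk RNA-seq libraries. The libraries hold Tregs, the Foxp3-expressing regulatory subset of CD4+ T cells, taken from spleen and from lung of mice with bleomycin (BLM)-induced pulmonary fibrosis. BLM, a chemotherapeutic agent that injures the lung, was given into the trachea at 50 μg, and cells were sorted as GFP+CD4+ on day 15. All mice were of the Foxp3-DTR-GFP (FDG) genotype, in which GFP is made from the endogenous Foxp3 locus together with the diphtheria toxin receptor, and the study's BLM experiments used mice 10 to 16 weeks old. The background strain of the FDG mice is not given in the sources used here. Each library pools the cells of 3 mice, and mice without BLM are not part of the comparison. With 1 library per tissue, no difference below could be compared with the spread between replicates, and none was tested. The deposited unit is FPKM, in which the fragments of a gene are scaled to its length and to the mapped fragments of the library, so that levels of different genes are compared per length. In a pooled sort, more cells of a type and more RNA per cell cannot be told apart.

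Cells take up fatty acids from lipoproteins and from their surroundings, bind them in the cytosol, store them as triglyceride in lipid droplets or burn them, and send surplus cholesterol out to lipoproteins. Lpl encodes the lipase that frees fatty acids from circulating triglyceride, Cd36 a scavenger receptor that takes up fatty acids and oxidised lipoproteins, and Fabp4 and Fabp5 carriers of fatty acids in the cytosol. Plin2 coats lipid droplets, and Scd1 and Scd2 are desaturases that turn saturated into monounsaturated fatty acids. Abca1 and Abcg1 export cholesterol, and Apoe encodes an apolipoprotein that accepts and carries it. The nuclear receptor PPARγ is known to drive Cd36, Fabp4, Lpl and Plin2, and the LXR receptors Abca1, Abcg1, Apoe and Scd1. In lung, alveolar macrophages are known for some of these genes because they clear surfactant lipid, capillary endothelium expresses Cd36 and Fabp4, and Tregs of adipose tissue express Pparg and Cd36.

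Upstream sequence is shown for Cd36 and Plin2, which had nearly the same ratio of lung to spleen (14.7 and 14.8), and for Abca1, which differed far less (2.40). RefSeq promoter windows (GRCm38.p6, the build of mm10) were found for 4 of the 10 genes, namely these and Apoe. The 250 bases before the annotated start are printed 5′ to 3′ on the minus strand, on which all 3 genes lie. Cd36 has more than 1 start, and the window at chr5:17835897-17836146 belongs to 1 of them. That of Plin2 is chr4:86670060-86670309 and that of Abca1 is chr4:53159896-53160145. Capitals mark matches, on either strand, to AGGTCA (the half-site bound by PPAR, LXR and RXR receptors), to CCAAT and to TATAAA.
Cd36: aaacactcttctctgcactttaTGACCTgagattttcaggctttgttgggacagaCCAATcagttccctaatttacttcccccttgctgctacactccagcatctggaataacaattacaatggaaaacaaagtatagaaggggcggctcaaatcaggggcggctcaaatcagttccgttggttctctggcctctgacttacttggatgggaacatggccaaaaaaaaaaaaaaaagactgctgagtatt
Plin2: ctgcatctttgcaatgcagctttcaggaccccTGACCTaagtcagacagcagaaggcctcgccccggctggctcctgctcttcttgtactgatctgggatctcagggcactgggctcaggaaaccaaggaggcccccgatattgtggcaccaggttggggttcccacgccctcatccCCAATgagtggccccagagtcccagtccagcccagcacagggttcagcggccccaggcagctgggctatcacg
Abca1: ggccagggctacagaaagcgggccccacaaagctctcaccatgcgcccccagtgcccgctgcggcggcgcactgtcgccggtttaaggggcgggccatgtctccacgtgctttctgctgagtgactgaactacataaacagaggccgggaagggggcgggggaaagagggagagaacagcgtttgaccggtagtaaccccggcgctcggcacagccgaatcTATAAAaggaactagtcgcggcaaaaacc
The half-site matched in the Cd36 window, beginning 228 bases before the start, and in the Plin2 window, beginning 218 bases before it. It matched in neither the Abca1 window nor the Apoe windows. Apoe, whose windows are not printed here, was 10.6-fold higher in lung. It occurs in 14.02% of the 32851 windows of this length. CCAAT matched 195 bases before the start of Cd36 and 73 bases before that of Plin2, and occurs in 33.8% of windows. TATAAA matched 29 bases before the start of Abca1 and, in 1 of the Apoe windows, 100 and 96 bases before the start, and occurs in 12.4%. The spaced repeats AGGTCANAGGTCA and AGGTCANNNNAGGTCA, which contain the half-site, matched in none of the genes' windows and occur in 0.0335% and 0.0152% of all windows. Only exact matches were sought, so a window without a match may still hold a site that differs from these letters. These matches describe the letters only.

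The genes of uptake and carriage had the highest summed ratio of the groups, 22.5-fold, against 9.59-fold for efflux and 5.60-fold for storage and desaturation. Most of each lung sum came from 1 gene, namely Fabp5 (415 of 642 FPKM), Apoe (2142 of 2188 FPKM) and Plin2 (176 of 201 FPKM). The median log2 ratios of the groups, in the same order, were 4.93, 1.26 and 0.64. In the lung library, Lpl, Cd36, Fabp4 and Fabp5 were between 14.7- and 131-fold higher than in spleen, Plin2 was 14.8-fold and Apoe 10.6-fold higher, and Abca1, Abcg1, Scd1 and Scd2 were at 2.40, 1.74, 1.56 and 0.820 times their spleen level. FPKM under 0.1 were set to 0.1 before ratios were taken, a floor that no member reached. Each interval below is a 95% counting interval from estimated reads and covers counting error only, since PCR copies of 1 molecule are counted separately and mice were not measured one by one. By the rule of more than 2-fold, 7 of the 10 genes were higher in lung, against 17.8% of the 12094 measured symbols, those that reached 1 FPKM in whichever library was higher, and 0 were lower, against 15.5%. The median log2 ratio of lung to spleen was 3.64 over the 10 genes and 0.03 over those symbols. By the study's own rule of more than 20-fold, 2 genes, Fabp4 and Lpl, were higher, against 3.27% of symbols. The 10 genes were chosen with earlier results of these data known, so these counts and shares only describe them. All 10 genes reached 1 FPKM in lung and 9 did in spleen, so Fabp4 passed that filter through its lung value alone.

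**Figure D1:**
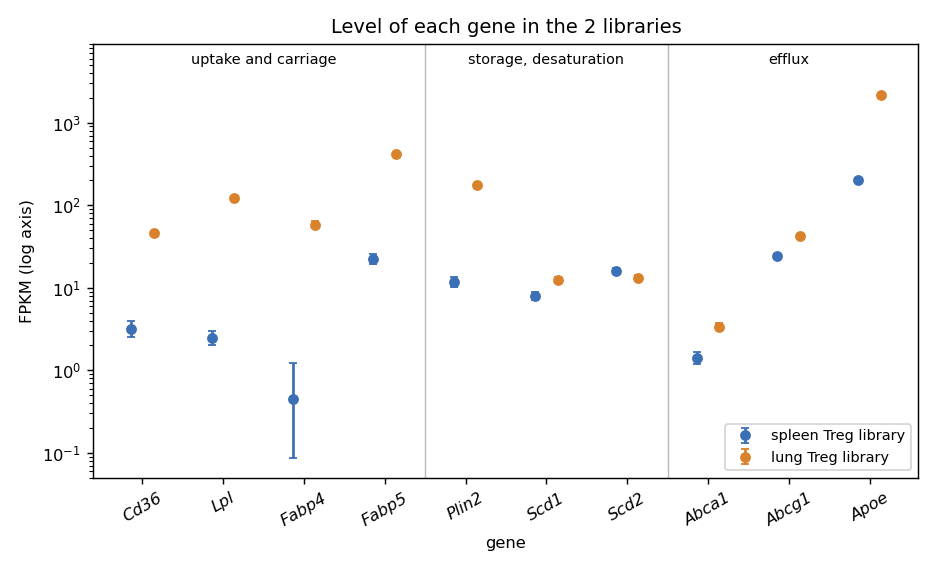
FPKM of each gene (log axis) in the spleen Treg library (blue) and the lung Treg library (orange), with 1 library per tissue and bars for the 95% counting interval from estimated reads. The spleen and lung points stand far apart for Cd36, Lpl, Fabp4, Fabp5, Plin2 and Apoe, and close together for Scd1 and Scd2 (7.94 and 12.4 FPKM, and 16.2 and 13.2 FPKM).

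Lpl, the lipase, was at 2.46 FPKM in spleen and 123 FPKM in lung, a ratio of 50.02 (40.9 to 61.4). The lung value stands on about 5662 estimated reads and the spleen value on about 99.7. Lpl lies on chromosome 8 of GRCm38 from 68880491 to 68907448. Its level was in place 8 of the 10 genes in spleen and in place 4 in lung. Cd36, the scavenger receptor, was at 3.17 FPKM in spleen and 46.5 FPKM in lung, a ratio of 14.7 (11.8 to 18.5). In spleen its counting interval overlapped that of Lpl, whereas in lung the interval of Lpl lay above it. The gene spans 17781690 to 17888801 on chromosome 5, and its reads (about 87.3 in spleen and 1453 in lung) were estimated from the median length of 4 transcripts.

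Fabp4, the carrier typical of adipocytes and macrophages, was at 0.446 FPKM in spleen and 58.3 FPKM in lung. The spleen value rests on about 3.18 reads, so the ratio of 131 has a counting interval from 47.1 to 674, while the lung value rests on about 472 reads. Even the lower bound of this interval is above 20-fold. Fabp5, the carrier found more widely in leukocytes and epithelia, was at 22.5 FPKM in spleen and 415 FPKM in lung, a ratio of 18.5 (15.9 to 21.6). It thus lay just under the threshold of 20-fold, and Lpl is the first gene above it. Fabp5 was the more abundant carrier in both libraries, 50.4 times Fabp4 in spleen and 7.11 times in lung.

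The genes of both carriers lie in 1 cluster on chromosome 3, Fabp5 from 10012548 to 10016607 on the plus strand and Fabp4 from 10204088 to 10208576 on the minus strand, 187 kb apart. Fabp9 and Pmp2, further fatty acid binding proteins between them, were listed at 0 in both libraries. Of the 75-base stretches of the Fabp5 transcript, the length of a read, 12.0% also occur in the transcripts of Gm6166 and Gm14328, so part of its reads could be divided between loci. No stretch of Fabp4 or Cd36 was shared with another gene, and 0.524% of those of Lpl were.

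Plin2, the droplet coat, was at 11.9 FPKM in spleen and 176 FPKM in lung, a ratio of 14.8 (12.8 to 17.1), nearly that of Cd36. About 207 reads in spleen and 3475 in lung stand behind it, and it lies on chromosome 4 from 86648386 to 86670060. Scd1 was at 7.94 FPKM in spleen and 12.4 FPKM in lung, a ratio of 1.56 (1.37 to 1.77). Scd2 was the only gene of the 10 that was lower in lung, at 16.2 FPKM in spleen and 13.2 FPKM in lung, a ratio of 0.820 (0.744 to 0.903). The desaturases therefore differed in opposite directions by less than 2-fold, with Scd2 at 2.03 times Scd1 in spleen and at 1.07 times in lung, where their counting intervals overlapped. With both libraries rescaled to an equal FPKM sum, Scd1 was at 1.16 times and Scd2 at 0.608 times the spleen level. Both values lie outside the counting intervals above, which do not cover scaling. They are neighbours on chromosome 19, Scd2 from 44293674 to 44306864 and Scd1 from 44394455 to 44407879, with Scd4 between them at 0.135 FPKM in spleen and 0.148 FPKM in lung. Reads of the family are hard to divide only in part, since 3.24% of the 75-base stretches of Scd1 and 1.80% of those of Scd2 occur in other genes, mainly of the same family.

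Apoe was the most abundant of the 10 genes in each library, at 203 FPKM in spleen and 2142 FPKM in lung, a ratio of 10.6 (10.1 to 11.0). It ranked 467 among all symbols in spleen and 44 in lung. The gene lies on chromosome 7 from 19696109 to 19699188, beside other apolipoprotein genes. Of these neighbours, Apoc1, which modulates lipoprotein uptake, was at 6.03 FPKM in spleen and 18.6 FPKM in lung, Apoc2, the cofactor of the lipase, was at 3.66 FPKM in spleen and listed at 0 in lung, and Apoc4 was listed at 0 in both. A count of 0 allows up to 0.580 FPKM of Apoc2 in lung. The spleen value, from about 16.7 reads, is 6.31 times that, with its own counting error left out. Tomm40, a mitochondrial import gene in the same stretch, was level, at 31.0 and 31.5 FPKM.

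The cholesterol exporters differed much less than Apoe. Abca1 was at 1.41 FPKM in spleen and 3.38 FPKM in lung, a ratio of 2.40 (1.98 to 2.92), and had the lowest level of the 10 genes in lung. Abcg1 was at 24.1 FPKM in spleen and 41.9 FPKM in lung, a ratio of 1.74 (1.63 to 1.86), just under 2-fold. Abcg1 exceeded Abca1 by 17.1 times in spleen and 12.4 times in lung. Abca1 lies on chromosome 4 from 53030787 to 53159895 and Abcg1 on chromosome 17 from 31057675 to 31117988. With both libraries rescaled to TPM, that is to an equal FPKM sum, Abca1 was 1.78-fold higher and left the count of genes over 2-fold. Abcg1 was then 1.29-fold higher, below its counting interval.

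**Figure D2:**
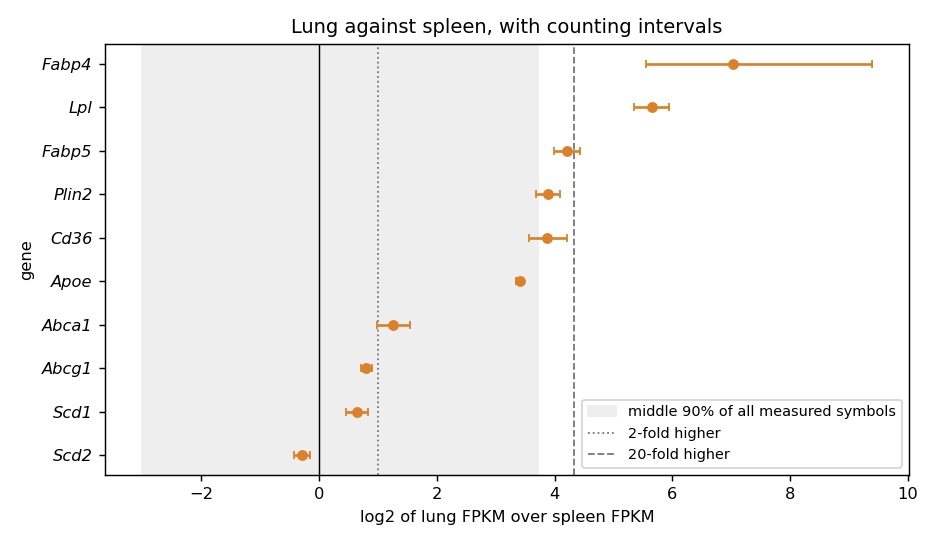
Log2 of the lung over the spleen FPKM of each gene, with bars for the 95% counting interval, against the middle 90% of the 12094 measured symbols (grey). Fabp4 and Lpl lie beyond the line for 20-fold, the interval of Fabp5 crosses it, and Scd2 alone lies left of 0.

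The order of the genes by FPKM differed between the libraries. In spleen it was Apoe, Abcg1, Fabp5, Scd2, Plin2, Scd1, Cd36, Lpl, Abca1 and Fabp4, where the neighbours Abcg1 and Fabp5, Cd36 and Lpl, and Abca1 and Fabp4 had overlapping counting intervals. In lung it was Apoe, Fabp5, Plin2, Lpl, Fabp4, Cd36, Abcg1, Scd2, Scd1 and Abca1, where only the intervals of the neighbours Scd2 and Scd1 overlapped. The sum over the 10 genes was 293 FPKM in spleen and 3031 FPKM in lung, of which Apoe was the greater part in each.

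Other genes of lipid handling, 133 in 7 lists without the 10 genes, were mixed. Of the 84 that were measured, 25 (29.8%) were over 2-fold higher in lung and 9 (10.7%) over 2-fold lower, with a median log2 ratio of 0.34. Over all measured symbols these shares were 17.8% and 15.5%, which are also the background for the counts by list below. Among receptors and transporters of uptake, 7 of 16 measured genes were over 2-fold higher and 2 over 2-fold lower, with a median log2 ratio of 0.83 that became 0.40 after rescaling to TPM and 0.65 at equal upper quartiles. Msr1, the macrophage scavenger receptor, was at 0.9497 and 28.4 FPKM in the spleen and lung libraries, and Angptl4, a secreted inhibitor of the lipase and a PPAR target, at 3.41 and 27.3 FPKM. The receptor of oxidised lipoprotein Olr1, listed at 0.0705 and 18.3 FPKM, had the highest ratio of that list, and the HDL receptor Scarb1 the lowest, at 10.5 FPKM in spleen and 3.78 FPKM in lung. Acsl5, which activates fatty acids, was the most abundant and nearly level, at 64.8 and 55.5 FPKM.

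Further genes of the binding protein family were low. Fabp1 was listed at 0 in spleen and at 10.2 FPKM in lung (about 41.3 reads). The lung value is 12.1 times what a count of 0 allows in spleen, with its own counting error left out. Fabp3, the carrier of heart and muscle, was at 0.447 FPKM in spleen and listed at 0 in lung.

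Storage genes leaned towards lung. Of 15 measured genes of droplet coats and lipolysis, 8 were over 2-fold higher and 3 over 2-fold lower, with a median log2 ratio of 1.06 that became 0.63 after rescaling to TPM and 0.88 at equal upper quartiles. Hilpda, a droplet protein that inhibits lipolysis, was at 35.9 FPKM in spleen and 160 FPKM in lung. Dgat1, which makes triglyceride, was at 23.1 and 141 FPKM. The lysosomal lipase Lipa was at 53.1 and 111 FPKM. G0s2, an inhibitor of the triglyceride lipase, had the highest ratio of the list (2.43 and 76.8 FPKM), and the droplet gene Fitm2 the lowest (4.17 and 0.0592 FPKM).

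The lists of synthesis and of burning of fatty acids had medians near 0. Of 10 measured genes of synthesis and desaturation, 4 were over 2-fold higher and 0 lower, with a median log2 ratio of 0.06 that became -0.37 after rescaling to TPM and -0.11 at equal upper quartiles. The most abundant, Elovl5 (102 FPKM in spleen and 80.2 FPKM in lung), Elovl1 (63.98 and 73.6 FPKM) and Acly (48.1 and 45.7 FPKM), were nearly level. Me1, which supplies NADPH, had the highest ratio (0.0633 and 2.67 FPKM), Elovl6, which elongates fatty acids (2.97 and 11.6 FPKM), and the carboxylases Acaca (1.60 and 3.72 FPKM) and Acacb (0.163 and 1.06 FPKM) were the others over 2-fold higher, and the desaturase Fads1 had the lowest (6.14 and 3.19 FPKM). Of 18 measured genes of fatty acid oxidation, 0 were over 2-fold different in either direction, with a median of 0.12 that became -0.31 after rescaling to TPM and -0.06 at equal upper quartiles. They ranged from Cpt2 (12.0 and 20.6 FPKM) to Slc25a20 (22.3 and 15.97 FPKM), and the most abundant were Etfb (106 and 161 FPKM), Hadhb (123 and 112 FPKM) and Etfa (80.2 and 109 FPKM).

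On the side of efflux, 3 of 12 measured transporters and apolipoproteins were over 2-fold higher and 2 over 2-fold lower, with a median log2 ratio of -0.07 that became -0.51 after rescaling to TPM. Pltp, the phospholipid transfer protein, was at 3.68 FPKM in spleen and 54.3 FPKM in lung. Npc2, the lysosomal cholesterol carrier, was at 78.2 and 117 FPKM, and Abcg3 at 20.8 and 13.0 FPKM. Abca9 had the highest ratio (0.127 and 2.55 FPKM). Among receptors of the LXR and PPAR families with their shared targets and corepressors, 1 of 11 measured genes, Pparg, was over 2-fold higher, at 3.57 and 28.2 FPKM, and 2 were over 2-fold lower, with a median of 0.06 that became -0.37 after rescaling to TPM and -0.12 at equal upper quartiles. Nr1h2, which encodes LXRβ, was at 40.1 and 37.4 FPKM, Lpcat3 at 17.7 and 35.4 FPKM, Ncor1 at 50.7 and 59.4 FPKM, and Arl4c, an LXR target, at 16.4 and 3.57 FPKM. Pparg is also on the list of alveolar macrophage markers below.

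**Figure D3:**
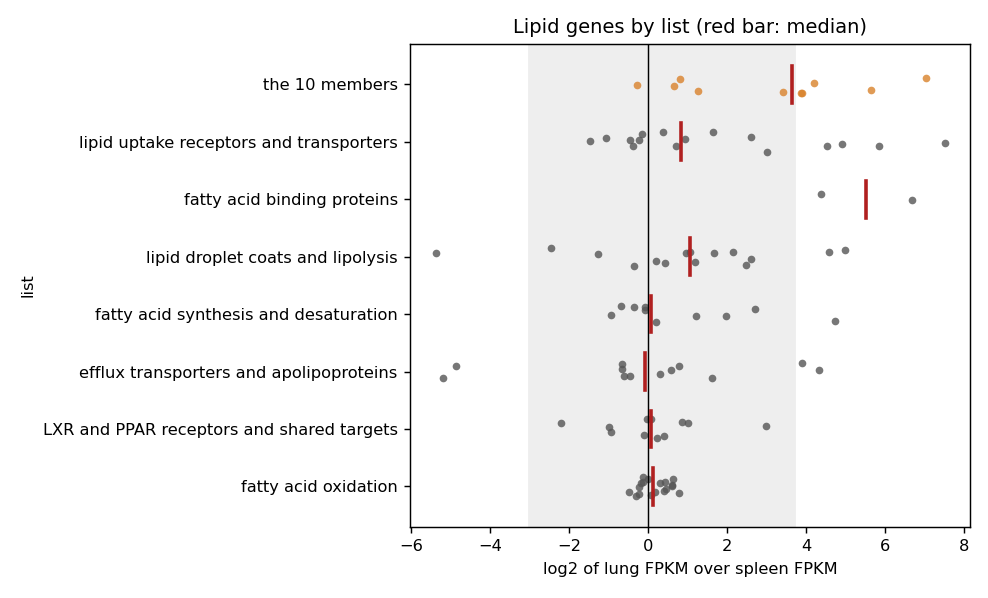
Log2 of the lung over the spleen FPKM for the 10 genes (orange) and for the measured genes of 7 lists of lipid handling (grey points), with each list's median as a red bar and the middle 90% of all measured symbols in grey. The median of the 10 genes is at 3.64, that of droplet coats and lipolysis at 1.06, and that of fatty acid oxidation at 0.12.

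Markers of the sorted cells had like sums in both libraries, and those of lung macrophages were higher in lung. The 11 listed T cell and Treg genes had sums of 4438 and 4666 FPKM in spleen and lung, with a median log2 ratio of -0.01, and Cd3g (902 and 1103 FPKM), Cd2 (912 and 977 FPKM) and Lck (823 and 654 FPKM) were the highest. Of the 11, 2 (18.2%, against 17.8% of all measured symbols) were over 2-fold higher in lung. Both are typical of Tregs, namely Foxp3 (18.7 and 41.8 FPKM) and Ctla4 (221 and 601 FPKM). Ikzf2 and Il2ra, also typical of Tregs, were not higher there, at 42.0 and 41.6 FPKM and at 89.4 and 59.1 FPKM. Genes of macrophages in general were over 2-fold higher in lung in 9 of 12 cases. Their sum was 1185 FPKM in spleen and 30911 FPKM in lung, most of the latter from Lyz2. Lyz2 was at 376 and 24947 FPKM, Ctss at 357 and 2779 FPKM, and Tyrobp at 189 and 1271 FPKM. The receptors Csf1r (43.8 and 50.1 FPKM) and Mrc1 (7.64 and 9.41 FPKM) and the surface marker Adgre1 (14.6 and 24.3 FPKM) differed by less than 2-fold. Of the alveolar macrophage markers, 12 of 13 measured were over 2-fold higher, with sums of 42.3 and 1760 FPKM and a median log2 ratio of 4.67. Chil3 was at 17.4 and 1161 FPKM, Ear2 at 9.24 and 205 FPKM, and Atp6v0d2 at 4.41 and 112 FPKM, while Ear1, Car4, Krt79, Fabp1 and Cidec were listed at 0 in spleen. Markers of monocyte-derived and lipid-laden macrophages were over 2-fold higher in 12 of 12 cases, with sums of 382 and 6600 FPKM, among them Spp1 (4.62 and 4560 FPKM), Cd9 (96.3 and 634 FPKM) and C1qb (129 and 560 FPKM). The part of macrophage RNA in the levels of the 10 genes was not tested.

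Set against these lists, the 10 genes were not uniform. The log2 ratios of Fabp4, Lpl, Fabp5, Plin2, Cd36 and Apoe were above the median of the general macrophage list, 2.69, and those of the 4 others were below it. Only Fabp4 and Lpl were above the median of the alveolar macrophage list. Relative to Lyz2 in the same library, Apoe was at 53.8% in spleen and 8.59% in lung, Fabp5 at 5.97% and 1.66%, Plin2 at 3.16% and 0.704%, and Cd36 at 0.844% and 0.186%. Lyz2 had the highest ratio of the general macrophage list, 66.3-fold, against 7.79-fold for Ctss and 6.73-fold for Tyrobp. Relative to any other gene of that list, each value would therefore lean more towards lung. Lpl changed little on this scale (0.654% and 0.493%), and Fabp4 was higher in lung (0.118% and 0.234%). Relative to C1qa, Apoe was at 5.03 times in spleen and 19.2 times in lung. C1qa, 2.78-fold higher in lung, is on the list of monocyte-derived and lipid-laden macrophages. In that list, 5 of 12 genes were over 20-fold higher, such as Spp1 (988-fold). Relative to those 5, Apoe would lean towards spleen, and relative to the rest towards lung. The median log2 ratio of that list was 2.42, with 6 of the 10 genes above it and 4 below.

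In spleen, macrophage genes were present as well, and most markers of red pulp macrophages were higher there. Of 10 markers of red pulp macrophages, 9 were over 2-fold lower in lung, with sums of 339 and 63.0 FPKM, and Hmox1 (91.0 and 42.5 FPKM), Slc40a1 (87.8 and 2.87 FPKM) and Vcam1 (72.9 FPKM, listed at 0 in lung) were the highest. Itgad was also listed at 0 in lung. Siglec1 went the other way, at 0.515 FPKM in spleen and 1.13 FPKM in lung.

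Further cell types that express some of the 10 genes were checked in the same way. Defining adipocyte genes were at or near 0, since Adipoq, Lep, Cfd, Cidea, Thrsp and Adrb3 were listed at 0 in both libraries and Plin1 at 0.0584 FPKM in spleen and 0 in lung. Retn and Pnpla3 were listed at 0 in lung as well, and Lipe, also found in other cells, was the only gene of that list to reach 1 FPKM (6.20 and 7.15 FPKM). Endothelial genes were low but higher in lung in 7 of 8 measured cases, with sums of 57.5 and 91.2 FPKM. Pecam1, which leukocytes also express, made up most of the spleen sum (54.8 and 31.7 FPKM), Ramp2 was at 0.291 and 18.9 FPKM and Plvap at 0.534 and 13.2 FPKM. Gpihbp1, which anchors the lipase on capillaries, was at 5.77 FPKM in lung and listed at 0 in spleen, Cdh5 and Tek were at 0.382 and 0.235 FPKM in lung and listed at 0 in spleen, Kdr was listed at 0 in lung, and Tie1 and Emcn were listed at 0 in both. Type 2 alveolar cells, which make surfactant with Scd1, had 6 of 8 measured genes higher in lung, with sums of 34.3 and 153 FPKM, of which Sftpc (94.8 FPKM in lung) was the most abundant and, with Sftpb, Sftpd and Lamp3, listed at 0 in spleen. Napsa (21.9 and 35.8 FPKM) and Abca3 (7.47 and 4.73 FPKM) came next. Fibroblast genes were higher in 5 of 5 measured cases, with sums of 0.290 and 164 FPKM. Mgp (116 FPKM in lung, listed at 0 in spleen), Dcn (0.122 and 22.2 FPKM) and Col1a2 (0.0391 and 13.4 FPKM) were the highest, Col3a1, Pdgfra, Lum and Tcf21 were also listed at 0 in spleen, and Pdgfrb in both. The part of these cells in the levels of the 10 genes was not tested.

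**Figure D4:**
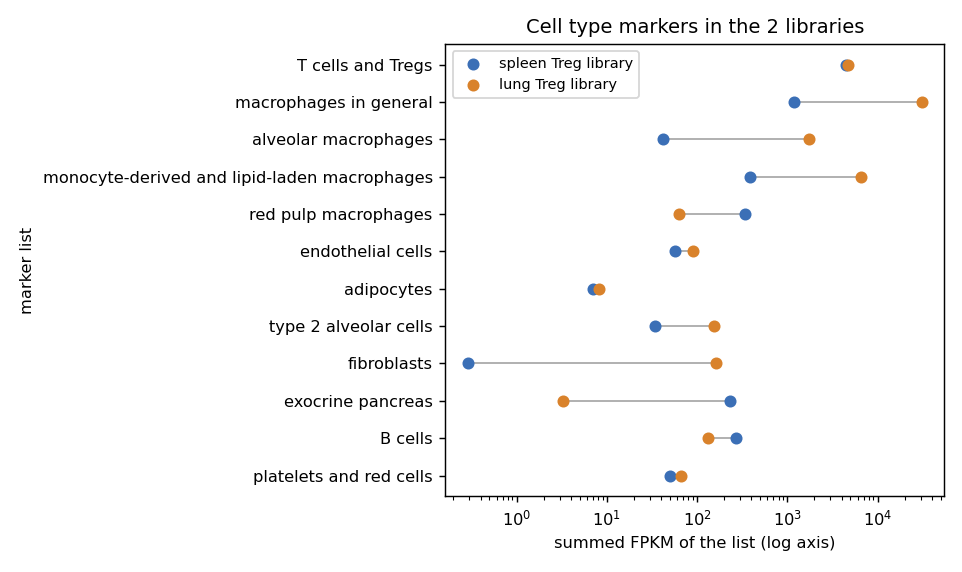
Summed FPKM (log axis) of 12 lists of cell type markers in the spleen Treg library (blue) and the lung Treg library (orange). The T cell sums nearly coincide (4438 and 4666 FPKM), while the sum of general macrophage genes is 1185 FPKM in spleen and 30911 FPKM in lung.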

How the data were processed

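Bulk RNA-seq of GFP+CD4+ cells was read as 1 library for spleen and 1 for lung. Single-end reads of 75 bases were aligned to mm10 by the authors, whose processing notes name TopHat2 2.1.1, Bowtie2 2.2.8 and SAMtools 0.1.18, and Cuffdiff 2.2.1 made the deposited FPKM. The annotation, the Cuffdiff options and any scaling between libraries are not given in the sources used here.

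Ratios of lung to spleen were taken after setting FPKM under 0.1 to 0.1. Symbols that reached 1 FPKM in either library counted as measured (12094 of 24346). FPKM summed to 599633 in spleen and 808853 in lung, and 9542 and 10638 symbols were listed at 0. None of 20 genes that every cell uses was listed at 0.

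Reads were estimated from GENCODE M21 transcripts tied to RefSeq (23016 symbols), with effective lengths for fragments of mean 200, SD 80 and a shortest length of 73 (lengths from 68 to 78 brought the reads of short genes about as close to whole numbers). What 1 read is worth was read from the commonest FPKM times effective length in single-transcript genes of at least 1500 bases (0.0964 FPKM at 1 kb in spleen, 0.0849 in lung). These estimates summed to about 9648370 and 12634100 reads. Intervals of levels are exact Poisson, those of ratios exact binomial (Clopper-Pearson), and a count of 0 was taken to allow 3 reads.

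The members, the 7 lists of lipid genes and the 12 marker lists were chosen with earlier results of these data known. The genes named were all members, the 3 highest of each list, the highest and lowest ratio of each lipid list, and markers listed at 0. The neighbours Apoc4, Fabp9, Pmp2, Scd4, Tomm40 and Apoc1 and Foxp3, Ctla4, Ikzf2, Il2ra, Csf1r, Mrc1, Adgre1, C1qa, Siglec1, Pnlip, Cel, Acaca, Acacb and Elovl6 were named in addition, after their values had been seen. A gene of the binding protein list is not reported here. Sequences are from RefSeq (GRCm38.p6). The estimate of what 1 read is worth and the calls at 20-fold were tested on simulated counts drawn with the same effective lengths. The intervals, list summaries and sequence matches were not tested in this way. Software was scipy 1.17.1, numpy 2.4.6, pandas 2.3.3 and matplotlib 3.10.9 under Python 3.11.15.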

Additional observations from a re-analysis of the deposited data

How the results depend on the processing

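All 10 genes kept their direction under the 8 settings chosen at the outset (a floor of 0.01 or 1 FPKM, a pseudocount of 0.1 or 1 FPKM, and 4 scalings) and when each library was credited with 3 reads or more, a setting chosen after seeing the data. Under the 8 settings, 2 genes were over 20-fold higher and 0 over 2-fold lower throughout. The count over 2-fold higher was 7, and 6 with a pseudocount of 1 FPKM or after rescaling to TPM, both without Abca1. The median log2 ratio of 3.64 became 3.45 with a pseudocount of 1 FPKM and 3.21 after rescaling to TPM, which lowers every lung value by 0.43 on the log2 scale. After that shift, 13.1% of symbols were over 2-fold higher and 25.9% over 2-fold lower, in place of 17.8% and 15.5%. Fabp4 varied most, between 41.0-fold with a pseudocount of 1 FPKM and 132-fold with scaling to T cell genes. Among symbols that reached 10 FPKM, 11.7% of symbols were over 2-fold higher, 9.15% over 2-fold lower and 2.02% over 20-fold higher, and without a filter 11.0%, 11.7% and 1.62%. With the shortest or longest transcript, the lung reads of Cd36 were 1351 or 1747 and those of Apoe 25536 or 30252. Depth limits Fabp4 in spleen, at about 3 reads. No paired analysis was possible because there is 1 library per tissue.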

Other observations

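Markers of further cell types also differed between the libraries. Of 13 measured exocrine pancreas genes, 13 were over 2-fold lower in lung, with sums of 231 FPKM in spleen against 3.25 in lung, and Cela2a (50.02 FPKM in spleen, listed at 0 in lung), Clps (34.1 FPKM, listed at 0 in lung) and Cela1 (30.5 and 3.12 FPKM) were the highest. Lipid-digesting enzymes were among them, such as Pnlip at 21.3 FPKM and Cel at 12.2 FPKM in spleen, both listed at 0 in lung. Of 7 measured B cell genes, 5 were over 2-fold lower in lung, among them Cd79a (80.4 and 30.4 FPKM) and Ms4a1 (37.6 and 17.4 FPKM), while Cd79b was at 90.4 and 59.7 FPKM. Of 7 measured genes of platelets and red cells, 6 were over 2-fold lower in lung, such as Hba-a1 (14.6 FPKM in spleen) and Ppbp (7.85 FPKM), both listed at 0 there, whereas Pf4 was higher, at 10.2 FPKM in spleen and 65.5 FPKM in lung. The part of these cells in the values of the 10 genes was not tested.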
